A study of Mus musculus with 14 samples.

Results

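The genes described here encode the nuclear subunits of respiratory complex I, the NADH dehydrogenase of mitochondria, in transformed mouse embryonic fibroblasts that carry naked mole rat (NMR) TRF1. They were chosen by symbol: every gene of the deposited expression table named Ndufa, Ndufb, Ndufc, Ndufs, Ndufv or Ndufab and a number, without symbols that mark pseudogenes and without the Ndufaf assembly factors. This gave 41 of 52636 genes. Of the 41, 38 reached 1 CPM, the read count of a gene scaled to a common library total, in at least 2 of the 14 libraries and were tested. The other 3, Ndufa11b, Ndufb4c and Ndufs6b, are annotated as processed pseudogenes despite their names, and none exceeded 0.249 CPM in any library. One of the 38, Ndufa4l2, reached 1 CPM in the double-mutant hypoxia libraries alone, so it was tested only through the group where it was high. It stays in the counts, which name it where it was called, but nothing is read from its calls and no p-value is given for it.

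Complex I takes electrons from NADH, passes them along a chain of iron-sulfur clusters to ubiquinone, and pumps protons across the inner mitochondrial membrane. Its peripheral arm holds the N module, which oxidizes NADH, and the Q module, which reduces ubiquinone. Its membrane arm has a proximal and a distal part. Of the core subunits, 7 are encoded in the nucleus and 7 in mitochondrial DNA, and the other nuclear subunits are accessory. In low oxygen, cells are known to lower respiration through the hypoxia-inducible factor (HIF). Ndufa4, once assigned to complex I, is now placed in complex IV, and HIF induces its paralog Ndufa4l2.

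TRF1 is a protein of telomeres whose gene is Terf1, and these cells carry the NMR protein in its place. The GLAD mutant of NMR TRF1 carries Glu69Lys, Val70Ala and Ala75Thr, the TIN mutant carries Ala105Thr, and the double mutant GLAD/TIN carries both sets. GLAD, TIN and double-mutant cells were each grown at 1% oxygen (hypoxia) and at atmospheric oxygen (normoxia), and cells with wild-type NMR TRF1 (WT) at normoxia. Each of the 7 groups had 2 libraries, A and B. Nothing in the labels says that A and B came from separate cultures or that a mutant was more than 1 cell line, so p-values rest on how far 2 libraries differ, possibly for technical reasons only, and line and mutation cannot be told apart. The WT columns of the table are named by another scheme and hold the word mouse, so every comparison with WT rests on the titles. The descriptions of WT libraries A and B also end in different numbers, which no mutant library has. What these numbers mark is not given.

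The libraries held an estimated 11917013 to 15023478 reads, from the spacing of the low values, and a count of 0 allowed up to 0.200 to 0.252 CPM (3 reads, counting error only). Levels are CPM after scaling by the trimmed mean of M values (TMM). Terf1 stood between 85.7 and 181 CPM in the 14 libraries and fell in hypoxia in each mutant (−0.70 ± 0.08 in GLAD, −0.67 ± 0.08 in TIN and −0.47 ± 0.08 in the double mutant, log2), and reads of the mouse and the NMR sequence were not told apart. The 8 fibroblast markers summed to 7172 to 15436 CPM, with Thy1 at or below 0.204 CPM. Between libraries A and B of a group, the members' median absolute log2 difference was 0.052 to 0.146 in the 6 mutant groups and 0.333 in WT, where library B was the higher by a median of 0.33.

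Summed over the 41 members, complex I transcripts were at 1740 and 1753 CPM in GLAD hypoxia against 2322 and 2283 CPM in GLAD normoxia. The sums were 2788 and 2728 CPM in TIN hypoxia against 2486 and 2700 CPM in TIN normoxia. In the double mutant they were 1628 and 1740 CPM in hypoxia against 2070 and 2163 CPM in normoxia. The WT normoxia libraries A and B stood at 2733 and 3419 CPM. The hypoxia sums thus lay below both normoxia libraries in GLAD and in the double mutant, and above both in TIN. Without Ndufv3 the TIN libraries overlapped, at 2629 and 2569 CPM in hypoxia against 2443 and 2653 CPM in normoxia. GLAD and double hypoxia stayed below their normoxia libraries without it. CPM give a share of each library's reads, so fewer cells of a type and less RNA per cell cannot be told apart.

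**Figure D1:**
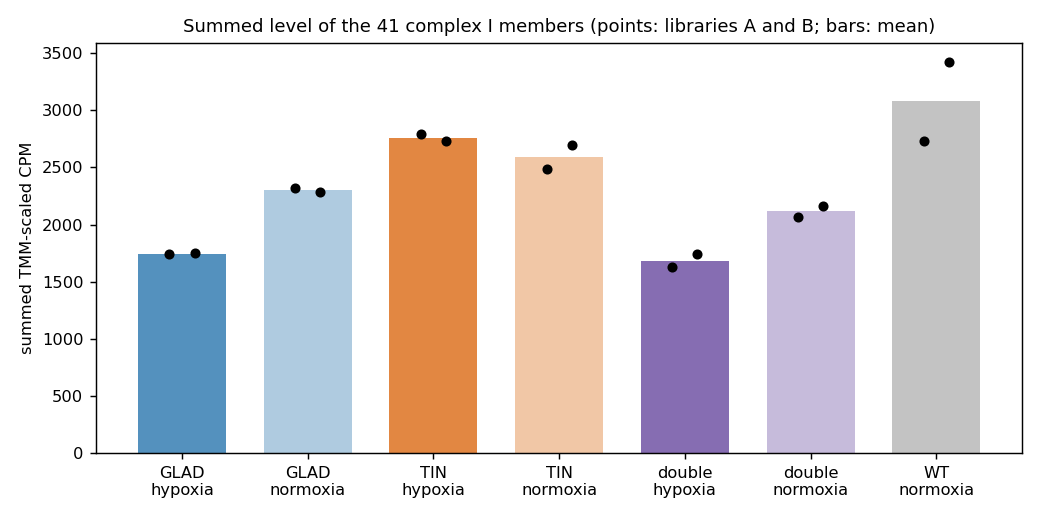
Summed level of the 41 complex I members (TMM-scaled CPM, vertical axis) in the 7 groups. Points are libraries A and B and bars their mean, from 1684 in double hypoxia and 1746 in GLAD hypoxia to 3076 in WT normoxia, where the points lie at 2733 and 3419.

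Per length of transcript, the most abundant member was Ndufa2, at a mean of 161 CPM per kb over the 14 libraries, followed by Ndufb9 at 119 and Ndufa7 at 113 CPM per kb. The lowest were Ndufb4 at 6.70, Ndufb2 at 5.71 and Ndufa4l2 at 0.799 CPM per kb. Lengths are of the longest annotated transcript, which is 4371 bases for Ndufb2 and 4435 bases for Ndufb7, so levels per kb of such genes are understated where a shorter transcript is made. The members were short as a group, with a median longest transcript of 1026 bases against 3008 bases over all genes tested. They lie on 15 chromosomes. Exons of 17 of the 38 members overlap another annotated gene, in 14 of the 17 on the opposite strand only. Whether reads were counted by strand is not given in the sources used here, so reads of such pairs (Ndufs1 and Eef1b2, Ndufb11 and Rbm10, Ndufa4l2 and Shmt2 among them) may not be told apart. Ndufa11, Ndufb4 and Ndufs6 can also share reads with the processed copies named above.

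Hypoxia and normoxia were compared within each mutant on log2(CPM + 0.5) with limma, where a gene was called at a Benjamini-Hochberg adjusted p under 0.05 over all 16157 genes tested. Log2 differences are hypoxia minus normoxia and are given with their standard error. In GLAD cells 33 of 38 members fell and 1 rose, where 25.2% of all genes were called lower and 22.7% higher. The members' median log2 difference was −0.47, against −0.03 over all genes. In double-mutant cells 28 of 38 members fell and 2, Ndufv3 and Ndufa4l2, were called higher, where 29.4% of all genes were lower and 26.5% higher, at a median of −0.41 against −0.03. In TIN cells 4 members fell and 7, Ndufa4l2 among them, were called higher, where 27.6% of all genes were lower and 26.4% higher, and the median was 0.06 against 0.00. On CPM as deposited, the TIN split was 5 lower and 5 higher, and with each library's trend on transcript length and GC content removed it was 9 lower and 6 higher.

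The 3 hypoxia effects share no library. All 28 members that fell in the double mutant also fell in GLAD, which is 84.8% of the 33 there. Ndufa6, Ndufa8, Ndufab1, Ndufb11 and Ndufb6 fell in GLAD and were not called in the double mutant. All 4 members that fell in TIN, Ndufa4, Ndufs1 and Ndufs8 among them, fell in all 3 mutants. Ndufv3 was the single member that rose in all 3. Across the 38 members the effects in GLAD and in the double mutant ran together at a Spearman rho of 0.74, against 0.44 for GLAD with TIN and 0.52 for the double mutant with TIN. These rhos share one fit and one scaling and are given as a description.

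Single libraries decided some of these counts. Here and below, no share of all genes is given for fits without a library, so those counts are not set against a background. The number of members lower in the double mutant was 18 without double normoxia library B, and the number higher was 1 without double hypoxia library A or B, where Ndufa4l2 no longer reached the limit and was not tested. The 7 members higher in TIN were 3 without TIN normoxia library A, and 4 when library A of TIN hypoxia was left out, and they were 11 without WT library A or without WT library B. The 4 members lower in TIN were 2 when library A of either TIN condition was left out, and 1 when library B was.

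**Figure D2:**
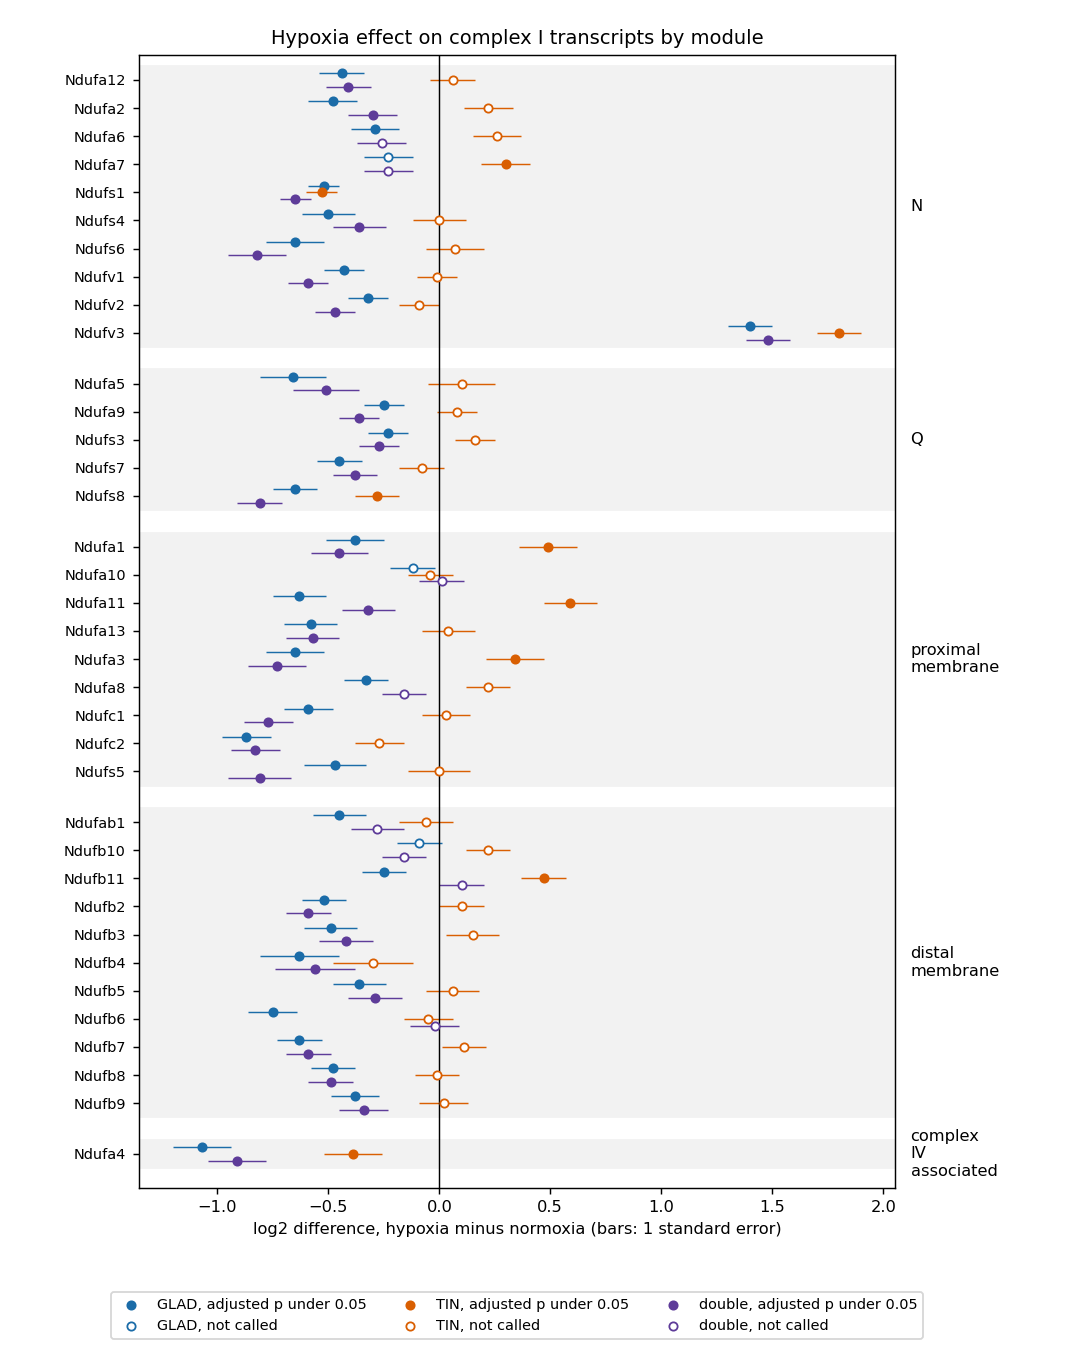
Log2 difference of hypoxia minus normoxia for 36 of the tested members, by module from N at the top to Ndufa4 of complex IV at the bottom, in GLAD, TIN and double-mutant cells. Filled points passed adjusted p under 0.05 and bars are 1 standard error. GLAD and double points lie left of 0 for nearly all members, TIN points lie around 0, and Ndufv3 lies right of 1 in all 3.

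In the N module of 10 subunits, 8 fell and 1 rose in GLAD hypoxia, 7 fell and 1 rose in the double mutant, and 1 fell and 2 rose in TIN. Of all genes, 25.2% fell and 22.7% rose in GLAD, 29.4% and 26.5% in the double mutant, and 27.6% and 26.4% in TIN. Neither TIN count of the module exceeds that background. Ndufv3, a small accessory subunit of this module, was the one that rose throughout. It stood at 115 and 125 CPM in GLAD hypoxia against 42.4 and 48.0 in GLAD normoxia, 160 and 159 in TIN hypoxia against 43.7 and 47.3 in TIN normoxia, 145 and 142 in double hypoxia against 49.0 and 53.6 in double normoxia, and 46.4 and 60.6 in WT normoxia. Every hypoxia library of the 3 mutants was above all 8 normoxia libraries. The log2 difference was 1.40 ± 0.10 (adjusted p = 5.5e-09) in GLAD, 1.80 ± 0.10 (adjusted p = 1.7e-10) in TIN and 1.48 ± 0.10 (adjusted p = 1.5e-09) in the double mutant, or 2.64, 3.48 and 2.79-fold. Mouse Ndufv3 is known to give a short and a long protein by use of an extra exon, and a count per gene does not tell these apart.

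Because Ndufv3 moved against most members, and Ndufa4 fell furthest in GLAD and in the double mutant, the 250 bases before their RefSeq start sites (GRCm38.p6) are shown. Ndufv3 is at chr17:31519865-31520114 on the + strand and Ndufa4 at chr6:11907451-11907700 on the − strand, both 5′ to 3′. Capitals mark matches to the motifs searched.
Ndufv3: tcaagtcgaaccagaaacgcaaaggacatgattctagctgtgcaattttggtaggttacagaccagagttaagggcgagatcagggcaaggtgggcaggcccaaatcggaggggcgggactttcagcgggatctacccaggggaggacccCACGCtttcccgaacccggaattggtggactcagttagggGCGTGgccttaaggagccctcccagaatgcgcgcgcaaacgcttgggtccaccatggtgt
Ndufa4: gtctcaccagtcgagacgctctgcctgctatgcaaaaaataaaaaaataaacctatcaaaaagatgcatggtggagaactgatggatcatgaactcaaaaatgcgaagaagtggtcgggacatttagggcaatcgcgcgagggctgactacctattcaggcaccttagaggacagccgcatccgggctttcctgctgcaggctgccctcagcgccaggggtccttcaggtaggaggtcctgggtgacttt
The motifs were ACGTG and GCGTG, the forms of the HIF core, which share the letters CGTG, the ETS core CCGGAAG and the NRF1 and YY1 motifs, each as an exact string on both strands. Ndufv3 had GCGTG on the − strand at −100 (as CACGC) and on the + strand at −60, and Ndufa4 had none of the 5 in these bases. In windows of 300 bases, which add 50 bases after the start, 33 of the 38 members had 35 windows. GCGTG was in 48.6% of these windows against 32.4% of all 32851 windows, ACGTG in 20.0% against 19.6%, YY1 in 11.4% against 0.633%, the ETS core in 11.4% against 8.86%, and NRF1 in 2.86% against 0.971%. Ndufa4 had GCGTG within the 50 bases after its start. Ndufv3 was among the members with ACGTG in a window of 300 bases, though not in the 250 bases shown. A match is a description of the letters and not of binding.

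Ndufv1, which binds the flavin that takes electrons from NADH, stood at 87.0 and 84.9 CPM in GLAD hypoxia against 112 and 120 in GLAD normoxia, 147 and 140 in TIN hypoxia against 145 and 144 in TIN normoxia, 73.4 and 74.6 in double hypoxia against 113 and 110 in double normoxia, and 130 and 164 in WT normoxia. Ndufv2, its iron-sulfur partner, stood at 42.1 and 40.6 CPM in GLAD hypoxia against 54.5 and 49.3 in GLAD normoxia, 77.3 and 78.5 in TIN hypoxia against 79.9 and 86.7 in TIN normoxia, 39.5 and 39.6 in double hypoxia against 53.8 and 56.0 in double normoxia, and 59.5 and 72.2 in WT normoxia. Both lay lower in each hypoxia library than in each normoxia library of GLAD and of the double mutant. Ndufv1 fell by 0.43 ± 0.09 in GLAD (adjusted p = 5.9e-04) and by 0.59 ± 0.09 in the double mutant (adjusted p = 1.9e-05), and its difference in TIN was −0.01 ± 0.09 (adjusted p = 0.95). For Ndufv2 the differences were −0.32 ± 0.09 (adjusted p = 0.0074) in GLAD, −0.47 ± 0.09 (adjusted p = 3.0e-04) in the double mutant and −0.09 ± 0.09 (adjusted p = 0.40) in TIN. The GLAD call was lost without GLAD normoxia library A (adjusted p = 0.074) or GLAD hypoxia library B (0.056).

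Ndufs1, the largest iron-sulfur subunit, differed from these in TIN. It stood at 68.9 and 69.2 CPM in GLAD hypoxia against 101 and 97.5 in GLAD normoxia, 99.7 and 91.9 in TIN hypoxia against 139 and 137 in TIN normoxia, 66.0 and 62.6 in double hypoxia against 100 and 102 in double normoxia, and 104 and 107 in WT normoxia. Hypoxia libraries lay below normoxia libraries in all 3 mutants. It fell in each, with −0.52 ± 0.07 (adjusted p = 1.1e-05) in GLAD, −0.53 ± 0.07 (adjusted p = 6.8e-06) in TIN and −0.65 ± 0.07 (adjusted p = 4.1e-07) in the double mutant. Ndufs6, a zinc-binding accessory subunit, stood at 26.4 and 25.1 CPM in GLAD hypoxia against 39.5 and 41.9 in GLAD normoxia, 35.9 and 30.8 in TIN hypoxia against 28.6 and 34.9 in TIN normoxia, 14.6 and 18.0 in double hypoxia against 30.8 and 27.4 in double normoxia, and 46.1 and 58.7 in WT normoxia. It fell in GLAD by 0.65 ± 0.13 (adjusted p = 5.6e-04) and in the double mutant by 0.82 ± 0.13 (adjusted p = 3.9e-05), while the TIN libraries overlapped, with a difference of 0.07 ± 0.13 (adjusted p = 0.67). Ndufs4, Ndufa2, Ndufa6, Ndufa7 and Ndufa12 complete the module. Their differences ran between −0.50 and −0.23 in GLAD and between −0.41 and −0.23 in the double mutant, and reached 0.30 in TIN, for Ndufa7 (adjusted p = 0.025).

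All 6 subunits of the Q module fell in GLAD and in the double mutant, and 2 fell in TIN. Of all genes, 25.2% fell in GLAD, 29.4% in the double mutant and 27.6% in TIN. With 6 genes, the TIN count is close to that share and is given as a description. Ndufs8, which carries iron-sulfur clusters, stood at 39.5 and 39.6 CPM in GLAD hypoxia against 62.3 and 62.5 in GLAD normoxia, 66.2 and 62.8 in TIN hypoxia against 76.6 and 80.0 in TIN normoxia, 27.7 and 31.0 in double hypoxia against 50.6 and 52.6 in double normoxia, and 63.6 and 84.0 in WT normoxia. The double-mutant hypoxia libraries were the lowest of the 14. It fell by 0.65 ± 0.10 in GLAD (adjusted p = 5.2e-05), by 0.28 ± 0.10 in TIN (adjusted p = 0.031) and by 0.81 ± 0.10 in the double mutant (adjusted p = 3.1e-06), and the TIN call was lost without any one of the 4 TIN libraries (adjusted p between 0.068 and 0.16). Ndufs7, which holds the last cluster before ubiquinone, stood at 56.8 and 64.8 CPM in GLAD hypoxia against 80.3 and 86.4 in GLAD normoxia, 84.5 and 80.6 in TIN hypoxia against 90.4 and 83.9 in TIN normoxia, 60.3 and 54.2 in double hypoxia against 74.7 and 74.6 in double normoxia, and 85.7 and 108 in WT normoxia. Its difference was −0.45 ± 0.10 (adjusted p = 0.0011) in GLAD, −0.38 ± 0.10 (adjusted p = 0.0034) in the double mutant and −0.08 ± 0.10 (adjusted p = 0.54) in TIN.

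Ndufs3, a core subunit that joins the assembly early, showed the smallest falls of the core. It stood at 38.0 and 37.6 CPM in GLAD hypoxia against 43.6 and 45.2 in GLAD normoxia, 64.4 and 61.1 in TIN hypoxia against 55.8 and 56.4 in TIN normoxia, 44.7 and 44.6 in double hypoxia against 51.5 and 56.6 in double normoxia, and 64.7 and 77.7 in WT normoxia. TIN hypoxia libraries were above TIN normoxia libraries, the reverse of the other mutants, without passing the test. The differences were −0.23 ± 0.09 (adjusted p = 0.044) in GLAD, −0.27 ± 0.09 (adjusted p = 0.016) in the double mutant and 0.16 ± 0.09 (adjusted p = 0.14) in TIN. In GLAD the call was lost with the length and GC trend removed (−0.16, adjusted p = 0.057), with no filter on low values (adjusted p = 0.073) and without any one of 10 libraries (adjusted p between 0.051 and 0.19). In the double mutant it was lost without double normoxia library B, double hypoxia library A or double hypoxia library B (between 0.052 and 0.15). Taking the 7 nuclear core subunits, 7 fell in GLAD (6 with the trend removed, without Ndufs3), 3 in TIN and 7 in the double mutant. Of all genes, 25.2% fell in GLAD, 27.6% in TIN and 29.4% in the double mutant. With 7 genes, the TIN count is given as a description. The summed core level was 470 ± 12.2 CPM in GLAD hypoxia against 654 ± 3.95 CPM in GLAD normoxia (SD, n = 2 each).

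**Figure D3:**
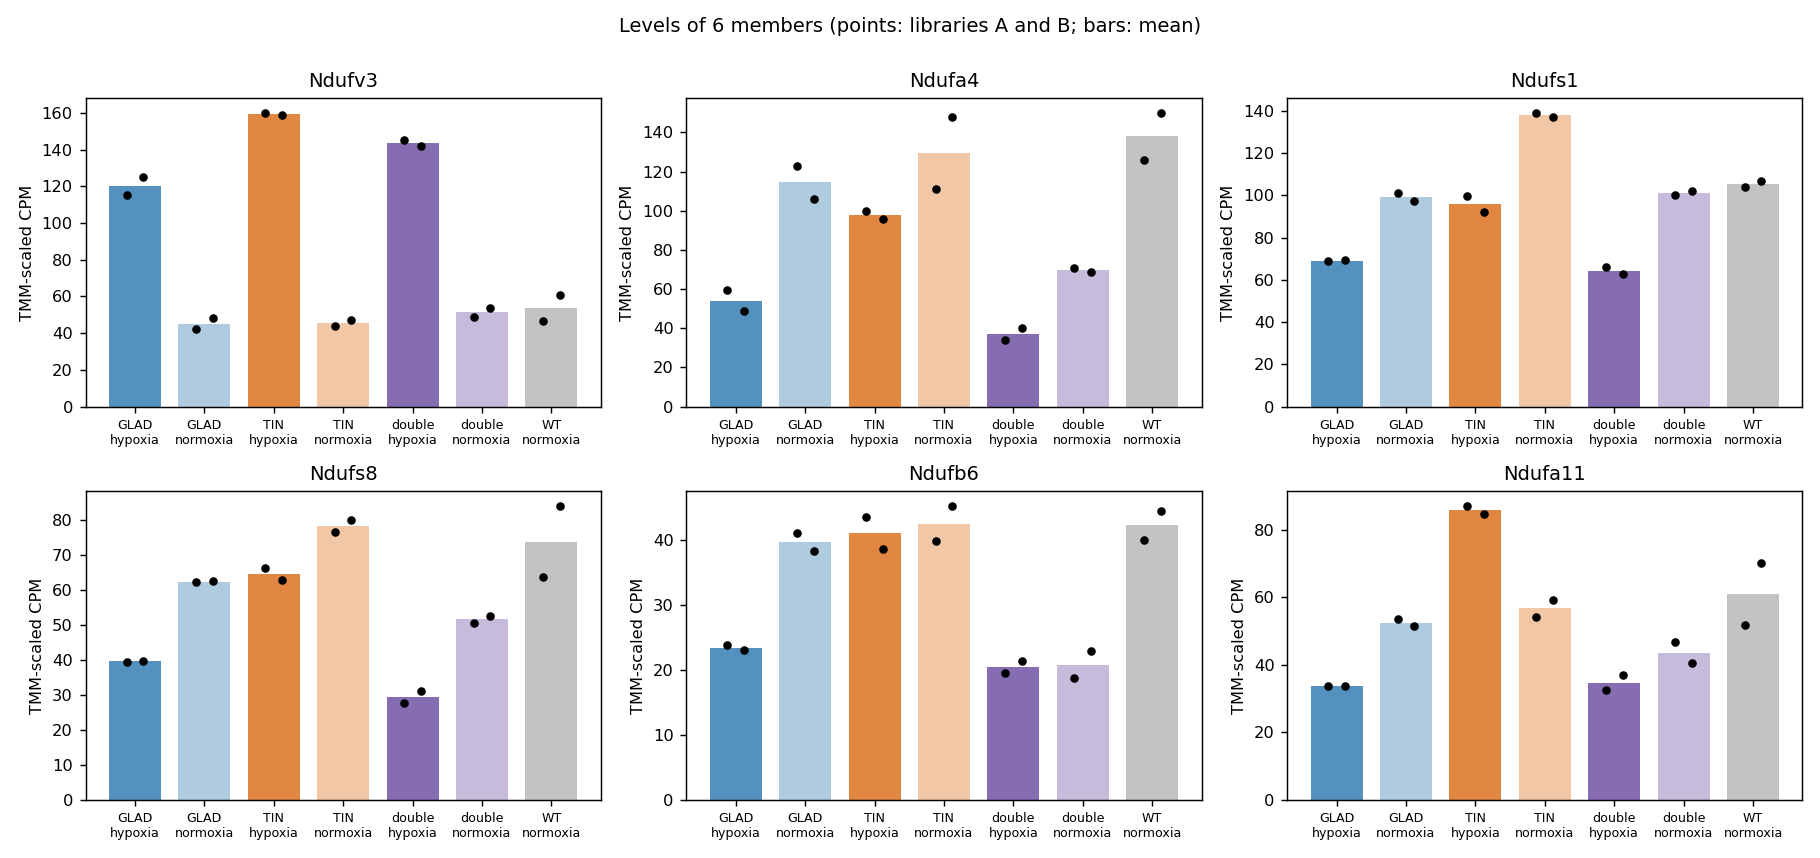
Levels of 6 members in the 7 groups (TMM-scaled CPM, each axis from 0). Points are libraries A and B and bars their mean. Ndufv3 is higher in all hypoxia groups, at 115 to 160, while Ndufa4, Ndufs1 and Ndufs8 are lower in hypoxia in each mutant, Ndufb6 is low in GLAD hypoxia and in both double-mutant groups, and Ndufa11 is highest in TIN hypoxia, at 87.1 and 84.6.

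Of the 9 subunits of the proximal membrane part, 8 fell in GLAD, 7 fell in the double mutant, and 3 rose and none fell in TIN. Over all genes, 25.2% fell in GLAD, 29.4% fell in the double mutant, and 26.4% rose and 27.6% fell in TIN. With 9 genes, the 3 that rose in TIN are close to that share and are given as a description. Ndufa11, which lies where the membrane arm meets other complexes in supercomplexes, stood at 33.8 and 33.6 CPM in GLAD hypoxia against 53.6 and 51.5 in GLAD normoxia, 87.1 and 84.6 in TIN hypoxia against 54.2 and 59.3 in TIN normoxia, 32.4 and 37.0 in double hypoxia against 46.8 and 40.4 in double normoxia, and 51.9 and 70.2 in WT normoxia. TIN hypoxia was above every other library, and GLAD and double hypoxia were below all normoxia libraries. The difference was −0.63 ± 0.12 (adjusted p = 2.3e-04) in GLAD, 0.59 ± 0.12 (adjusted p = 3.4e-04) in TIN and −0.32 ± 0.12 (adjusted p = 0.025) in the double mutant. In the double mutant the call was lost without double normoxia library A (adjusted p = 0.22) or double hypoxia library A (0.20).

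Ndufa1, a small membrane subunit whose gene is on the X chromosome, stood at 30.9 and 25.5 CPM in GLAD hypoxia against 37.4 and 36.0 in GLAD normoxia, 41.8 and 43.5 in TIN hypoxia against 27.5 and 33.0 in TIN normoxia, 19.1 and 18.6 in double hypoxia against 24.8 and 27.3 in double normoxia, and 37.8 and 50.0 in WT normoxia. It rose in TIN, by 0.49 ± 0.13 (adjusted p = 0.0032), and differed by −0.38 ± 0.13 (adjusted p = 0.02) in GLAD and by −0.45 ± 0.13 (adjusted p = 0.0055) in the double mutant. Those calls were lost in GLAD without GLAD normoxia library A or B or GLAD hypoxia library B (adjusted p between 0.061 and 0.23), in TIN without TIN normoxia library A (0.063) and in the double mutant without double normoxia library B (0.058). Ndufa3, another small membrane subunit, stood at 26.9 and 28.1 CPM in GLAD hypoxia against 42.3 and 44.7 in GLAD normoxia, 59.8 and 56.0 in TIN hypoxia against 42.1 and 49.2 in TIN normoxia, 26.4 and 28.4 in double hypoxia against 45.5 and 45.9 in double normoxia, and 43.6 and 64.9 in WT normoxia. Its pattern was the same in direction, with −0.65 ± 0.13 (adjusted p = 5.2e-04) in GLAD, 0.34 ± 0.13 (adjusted p = 0.035) in TIN and −0.73 ± 0.13 (adjusted p = 1.3e-04) in the double mutant. The TIN call of Ndufa3 was lost on CPM as deposited (0.32, adjusted p = 0.057), with the length and GC trend removed (0.18, adjusted p = 0.15) and with no filter on low values (adjusted p = 0.13). It was also lost without library A of TIN hypoxia (adjusted p = 0.17), library B of TIN hypoxia (0.07) or library A of TIN normoxia (0.26).

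Ndufc2 had the largest fall among proximal subunits in GLAD. It stood at 14.7 and 15.6 CPM in GLAD hypoxia against 28.3 and 27.6 in GLAD normoxia, 24.9 and 25.1 in TIN hypoxia against 30.1 and 30.5 in TIN normoxia, 12.2 and 15.3 in double hypoxia against 22.9 and 26.6 in double normoxia, and 37.1 and 40.5 in WT normoxia. Hypoxia libraries lay below normoxia libraries in each mutant. The differences were −0.87 ± 0.11 (adjusted p = 7.1e-06) in GLAD, −0.83 ± 0.11 (adjusted p = 7.3e-06) in the double mutant and −0.27 ± 0.11 (adjusted p = 0.051) in TIN. Ndufa13, a subunit that spans the membrane and reaches the matrix, stood at 68.1 and 73.9 CPM in GLAD hypoxia against 105 and 108 in GLAD normoxia, 118 and 118 in TIN hypoxia against 113 and 117 in TIN normoxia, 71.8 and 88.2 in double hypoxia against 113 and 124 in double normoxia, and 156 and 215 in WT normoxia. It fell by 0.58 ± 0.12 in GLAD (adjusted p = 5.0e-04) and by 0.57 ± 0.12 in the double mutant (adjusted p = 4.3e-04), and its difference in TIN was 0.04 ± 0.12 (adjusted p = 0.80). Ndufa10 was not called in any mutant, at −0.12 ± 0.10 in GLAD, −0.04 ± 0.10 in TIN and 0.01 ± 0.10 in the double mutant.

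In the distal membrane part, 10 of 11 subunits fell in GLAD and 7 fell in the double mutant, while 1 rose and none fell in TIN. Over all genes, 25.2% fell in GLAD, 29.4% fell in the double mutant, and 26.4% rose and 27.6% fell in TIN. The 1 that rose in TIN does not exceed that share. Ndufb6 separated GLAD from the double mutant. It stood at 23.8 and 23.1 CPM in GLAD hypoxia against 41.2 and 38.3 in GLAD normoxia, 43.6 and 38.6 in TIN hypoxia against 39.9 and 45.3 in TIN normoxia, 19.6 and 21.4 in double hypoxia against 18.7 and 22.9 in double normoxia, and 40.1 and 44.6 in WT normoxia. Double-mutant cells were low in both conditions, and GLAD cells in hypoxia alone. The hypoxia difference was −0.75 ± 0.11 (adjusted p = 2.9e-05) in GLAD, −0.05 ± 0.11 (adjusted p = 0.73) in TIN and −0.02 ± 0.11 (adjusted p = 0.92) in the double mutant. Ndufb7, which lies on the intermembrane side, stood at 38.9 and 39.3 CPM in GLAD hypoxia against 61.5 and 59.8 in GLAD normoxia, 87.2 and 88.3 in TIN hypoxia against 81.3 and 81.0 in TIN normoxia, 36.7 and 37.6 in double hypoxia against 54.8 and 57.3 in double normoxia, and 94.3 and 126 in WT normoxia. It fell in GLAD, by 0.63 ± 0.10 (adjusted p = 5.6e-05), and in the double mutant, by 0.59 ± 0.10 (adjusted p = 7.6e-05), and its TIN difference was 0.11 ± 0.10 (adjusted p = 0.36).

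Ndufb4 was low in every library, at 4.37 and 4.26 CPM in GLAD hypoxia against 7.45 and 6.47 in GLAD normoxia, 4.97 and 6.46 in TIN hypoxia against 6.77 and 7.44 in TIN normoxia, 3.18 and 4.29 in double hypoxia against 4.96 and 6.55 in double normoxia, and 12.0 and 11.9 in WT normoxia. Its difference was −0.63 ± 0.18 (adjusted p = 0.0078) in GLAD, −0.56 ± 0.18 (adjusted p = 0.012) in the double mutant and −0.30 ± 0.18 (adjusted p = 0.17) in TIN. The GLAD call was lost without GLAD normoxia library A (adjusted p = 0.067), and the double-mutant call without double normoxia library B (0.16) or double hypoxia library A (0.15). Ndufb11, the distal subunit that rose in TIN (0.47 ± 0.10 (adjusted p = 5.7e-04)), stood at 116 and 110 CPM in TIN hypoxia against 77.2 and 85.9 CPM in TIN normoxia. Ndufab1, the mitochondrial acyl carrier protein, fell in GLAD by 0.45 ± 0.12 (adjusted p = 0.0057), and its difference in the double mutant was −0.28 ± 0.12 (adjusted p = 0.061). The transcript annotated as Ndufb1-ps, left out by its symbol, stood at 21.9 and 20.1 CPM in GLAD hypoxia against 31.5 and 31.3 CPM in GLAD normoxia, and its differences were −0.57 ± 0.13 in GLAD, 0.12 ± 0.13 in TIN and −0.40 ± 0.13 in the double mutant.

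Of the pair placed with complex IV, Ndufa4 fell in all 3 mutants. It stood at 59.4 and 48.8 CPM in GLAD hypoxia against 123 and 106 in GLAD normoxia, 100 and 95.7 in TIN hypoxia against 111 and 148 in TIN normoxia, 33.9 and 40.1 in double hypoxia against 70.6 and 68.9 in double normoxia, and 126 and 150 in WT normoxia. The double-mutant hypoxia libraries were the lowest of the 14. The difference was −1.07 ± 0.13 (adjusted p = 2.1e-06) in GLAD, −0.39 ± 0.13 (adjusted p = 0.016) in TIN and −0.91 ± 0.13 (adjusted p = 8.2e-06) in the double mutant, and the TIN call was lost without TIN normoxia library B (−0.18, adjusted p = 0.31) or TIN hypoxia library B (−0.35, adjusted p = 0.089). Ndufa4l2, its HIF-induced paralog, was near the floor throughout. It stood at 0.497 and 0.667 CPM in GLAD hypoxia against 0.876 and 0.588 in GLAD normoxia, 0.597 and 0.298 in TIN hypoxia against 0 and 0.0979 in TIN normoxia, 2.86 and 2.04 in double hypoxia against 0.982 and 0.353 in double normoxia, and 0.605 and 0.654 in WT normoxia. These values correspond to an estimated 60 reads over both double hypoxia libraries against 17 over double normoxia. In TIN there were 11 reads in hypoxia against 1 in normoxia, and in GLAD 15 against 22. As the gene was tested only through double hypoxia, nothing is read from these counts. The fitted differences of Ndufa4l2 depend on the 0.5 CPM added and are not given.

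**Figure D4:**
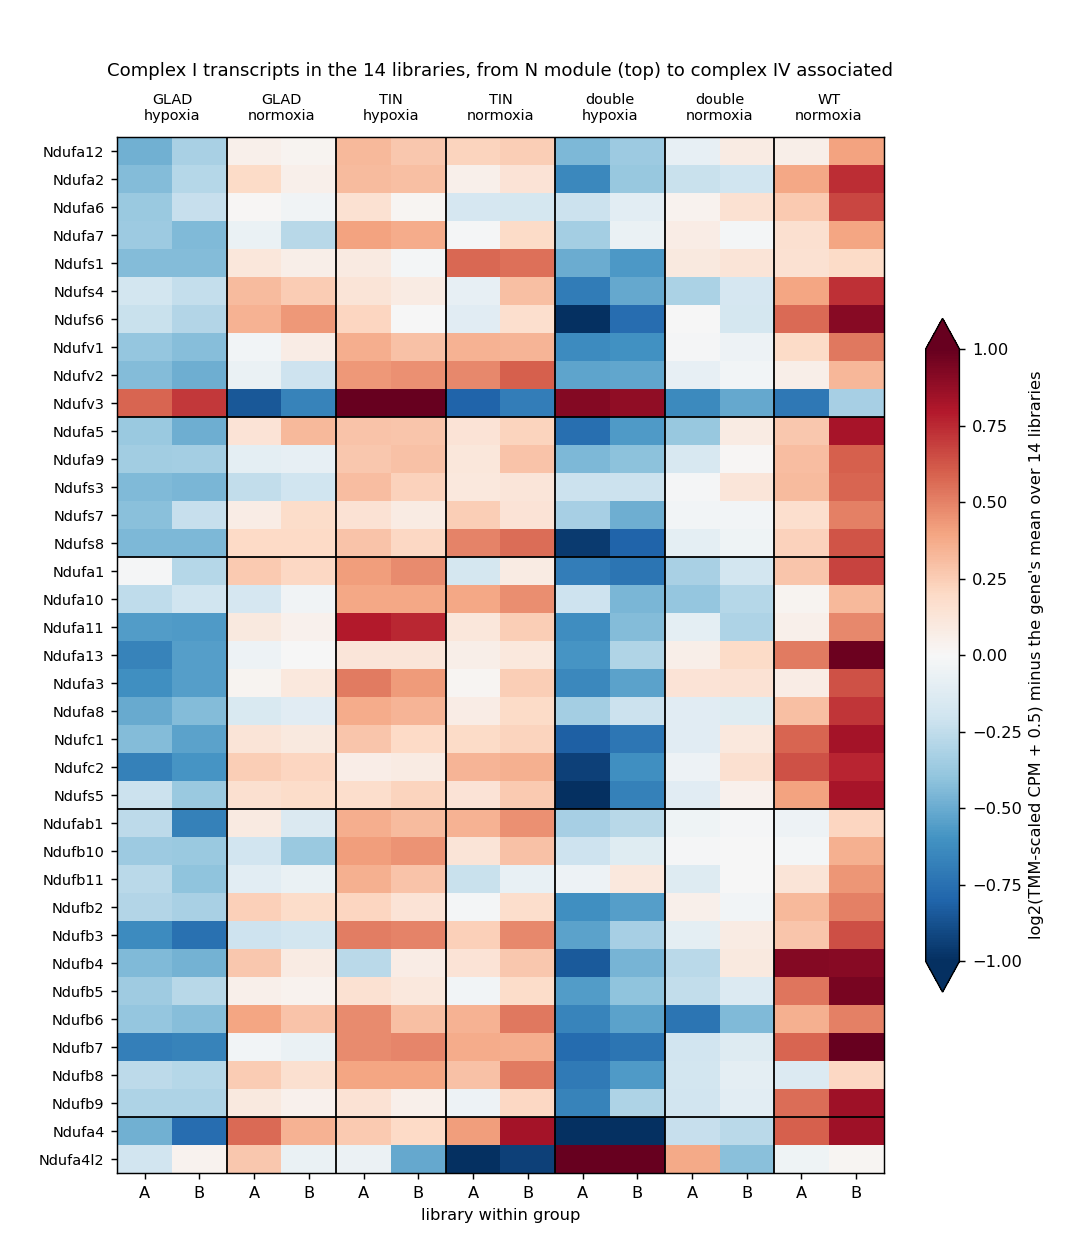
Level of 37 of the tested members in the 14 libraries, as log2(TMM-scaled CPM + 0.5) minus its mean over all 14, with colours saturating at −1 and 1. GLAD and double hypoxia are below the mean for nearly all members, WT library B has the highest median at 0.63, and Ndufv3 is above its mean in hypoxia. Ndufa4l2 is near the floor and nothing is read from its row.

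Whether the hypoxia effect differed between mutants was tested as the difference of the 2 effects. Between TIN and GLAD it differed for 26 of 38 members, all more positive in TIN, where 16.6% of all genes were called in this direction, with a median of 0.51 against 0.03 over all genes. No member was called the other way, where 17.3% of all genes were, and 33 members had an unadjusted p under 0.05 in either direction. The share of all genes at that unadjusted limit was not worked out, so the 33 are not set against a background. The largest differences were 1.23 ± 0.16 for Ndufa11 (adjusted p = 3.8e-05), 1.00 ± 0.19 for Ndufa3 (adjusted p = 6.6e-04) and 0.87 ± 0.18 for Ndufa1 (adjusted p = 0.0014). All 3 belong to the proximal membrane part. Ndufs1 had −0.01 ± 0.10 (adjusted p = 0.95). Without TIN normoxia library A, 17 members were called.

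Between the double mutant and TIN the effect was more negative in the double mutant for 27 of 38 members, where 21.4% of all genes were called in this direction, with a median of −0.48 against −0.02. None was called the other way, where 21.4% of all genes were, and 30 had an unadjusted p under 0.05. For these 30 too, the share of all genes at the unadjusted limit was not worked out. The same 3 proximal subunits led, with −1.07 ± 0.19 for Ndufa3, −0.95 ± 0.18 for Ndufa1 and −0.92 ± 0.16 for Ndufa11. The count was 17 without TIN normoxia library A, 15 without double normoxia library B and 14 without double hypoxia library A. These comparisons share the TIN libraries, so the order of their members is not independent.

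Between the double mutant and GLAD 2 of 38 members were called, both more positive in the double mutant, where 7.00% of all genes were called more positive and 7.61% more negative, and the median was 0.03 against −0.01. It was −0.04 without double normoxia library A and −0.05 without double hypoxia library B. The count of 2 does not exceed that background. Ndufb6 differed by 0.73 ± 0.16 (adjusted p = 0.0044), and the other was Ndufa4l2, from whose call nothing is read. No member was called more negative. An unadjusted p under 0.05 was found for 3 members, and the share of all genes at that limit was not worked out. The count of 2 was 1 without GLAD normoxia library A, double normoxia library B, GLAD hypoxia library A, double hypoxia library A or double hypoxia library B, in each case for want of Ndufa4l2. A difference that misses the threshold does not show that the members acted alike. For the other 36 members the difference lay between −0.35 and 0.35, with a median standard error of 0.15 over the 38.

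TIN hypoxia libraries were checked for a bias by transcript length, since the members are short. Within each library, a gene's deviation from its mean over the 14 libraries was set against the length of its longest transcript. The Spearman rho across 16117 genes was −0.27 and −0.25 in TIN hypoxia libraries A and B, against −0.02 in both TIN normoxia libraries. It was 0.19 and 0.21 in GLAD hypoxia against 0.07 and 0.07 in GLAD normoxia, and 0.16 and 0.10 in double hypoxia against 0.10 and 0.10 in double normoxia. WT library B stood at −0.21 and WT library A at −0.05. Short transcripts were thus read relatively high in both TIN hypoxia libraries and in WT library B.

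The hypoxia effect in TIN ran with length at a rho of −0.21. The rho was 0.10 in GLAD and 0.05 in double-mutant cells. Its median over all genes was 0.12 in the shortest length bin (up to 1470 bases) and −0.23 in the longest (from 4923 bases). In the shortest bin, 26 members had a median of 0.09, close to the 0.12 of all genes there. In GLAD the same 26 members had a median of −0.47 against −0.08 for all genes of the bin, and in the double mutant −0.39 against −0.06. Set beside genes of like length, the members thus stood lower in GLAD and double cells, and in TIN no such gap was seen in the shortest bin. In the next bin of TIN (1471 to 2518 bases) 7 members had a median of −0.01 against 0.12 for all genes.

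**Figure D5:**
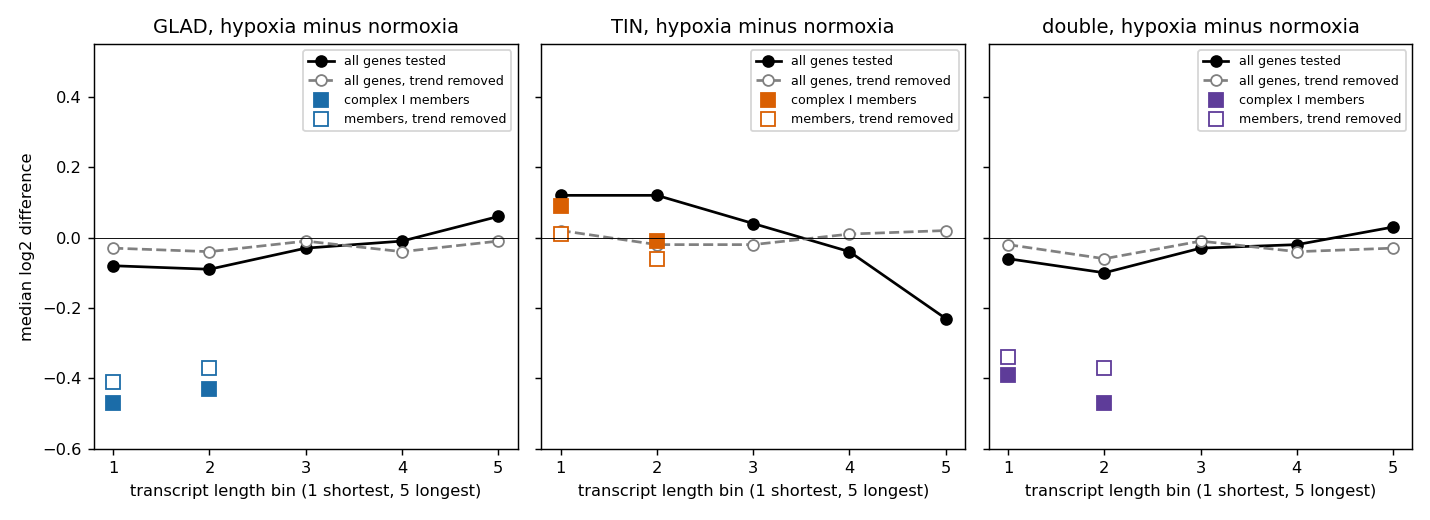
Median log2 difference of hypoxia minus normoxia by bin of longest transcript length, for all genes tested (circles) and for complex I members (squares, bins with at least 5 members), before (filled) and after (open) correction of every library for length and GC content. In TIN the line of all genes falls to −0.23 in the longest bin and the members lie at 0.09 and −0.01 against 0.12 in both shortest bins, while in GLAD and the double mutant the members lie far below it.

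After every library was corrected for its trend with length and GC content, the rho in TIN was 0.00, and 9 of 38 members were lower and 6 higher in TIN hypoxia at a median of 0.01. In the same fit 29.1% of all genes were lower and 27.3% higher, so neither count exceeds the background. All 4 members called lower before were among the 9, joined by Ndufa10, Ndufb4, Ndufc2, Ndufs7 and Ndufv1. Core subunits lower in TIN were then 5 of 7. Of the 7 members called higher before, Ndufa1, Ndufa7, Ndufa11, Ndufb11 and Ndufv3 were among the 6, with Ndufv3 at 1.63 and Ndufa11 at 0.37, and Ndufa3 and Ndufa4l2 were not. In GLAD 32 members were lower, against 27.7% of all genes, and in the double mutant 29, against 31.6% of all genes. Removal of the trend also takes out any difference of another origin that runs with length.

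The difference between TIN and GLAD was then called for 20 members, 19 of them among the 26, at a median of 0.39, where 16.1% of all genes were called in this direction. None of the core subunits was left of the 4 called before. For Ndufs3, Ndufs7 and Ndufv1 the difference was 0.09 to 0.12, against 0.38 to 0.42 before. In the proximal membrane part, all 7 calls remained, with Ndufa11 at 0.93, Ndufa1 at 0.82 and Ndufa3 at 0.77. In the distal part all 6 remained and Ndufab1 was added. The double mutant differed from TIN for 19 members, all among the 27, at a median of −0.31, where 22.0% of all genes were called in this direction.

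In normoxia each mutant was compared with WT, as mutant minus WT. In GLAD 22 of 38 members were lower and none higher, where 27.1% of all genes were lower and 28.3% higher, at a median of −0.34. In TIN 20, Ndufa4l2 among them, were lower and 5 higher, where 29.6% of all genes were lower and 30.4% higher, also at a median of −0.34. In the double mutant 29 were lower and none higher, where 27.4% of all genes were lower and 29.5% higher, at a median of −0.51. The median over all genes was 0.01 in each. The 3 comparisons share the WT libraries. WT library B lay above library A in the members, and the medians without it were −0.19 in GLAD, −0.14 in TIN and −0.34 in the double mutant, against −0.53, −0.45 and −0.68 without library A. Without WT library B, 16 members were lower in GLAD, 15 in TIN and 25 in the double mutant. Without WT library A these were 33, 28 and 35. The 5 higher in TIN were 3 without TIN normoxia library A, 1 without TIN normoxia library B and 2 without WT library A, and in GLAD 1 was higher without WT library B. An unadjusted p under 0.05, in either direction, was found for 27 members in GLAD and for 31 in the double mutant by the same limma fit. As the share of all genes at that limit was not worked out, these counts are not set against a background.

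The members furthest below WT in GLAD were Ndufb7 (−0.84 ± 0.10 (adjusted p = 1.8e-06)), Ndufa13 (−0.78 ± 0.12 (adjusted p = 2.2e-05)) and Ndufb4 (−0.75 ± 0.18 (adjusted p = 0.002)). In TIN, with Ndufa4l2 left out of the ranking, they were Ndufb4 (−0.72 ± 0.18 (adjusted p = 0.0022)) and Ndufs6 (−0.71 ± 0.13 (adjusted p = 1.6e-04)). The fitted value of Ndufa4l2 rests on 1 read in TIN and is not given, and nothing is read from its call. In the double mutant they were Ndufb6 (−1.01 ± 0.11 (adjusted p = 5.6e-07)), Ndufb4 (−1.01 ± 0.18 (adjusted p = 1.3e-04)) and Ndufa4 (−0.97 ± 0.13 (adjusted p = 4.4e-06)). TIN cells had more Ndufs1 (0.39 ± 0.07 (adjusted p = 1.3e-04)) and Ndufv2 (0.34 ± 0.09 (adjusted p = 0.0037)) than WT cells, and the Ndufv2 call was lost without TIN normoxia library B (0.051).

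Among the mutants in normoxia, TIN had 13 members higher and 2 lower than GLAD, where 25.3% of all genes were higher and 25.9% lower, at a median of 0.10. The 13 included the core subunits Ndufs1, Ndufs3, Ndufs8, Ndufv1 and Ndufv2, with 0.68 ± 0.09 (adjusted p = 7.1e-06) for Ndufv2. They were 8 without GLAD normoxia library A, GLAD normoxia library B or TIN normoxia library B. The 2 lower, Ndufa4l2 and Ndufs6 (−0.36 ± 0.13 (adjusted p = 0.03)), were 1 without any one of GLAD normoxia library A or B, TIN normoxia library A, or double hypoxia library A or B, and 4 without TIN normoxia library B. The double mutant had 16 lower and 1 higher than TIN, where 22.7% of all genes were lower and 24.5% higher, at a median of −0.26, led by Ndufb6 (−1.02 ± 0.11 (adjusted p = 5.8e-07)). The 16 were 9 without TIN normoxia library B. The 1 higher, Ndufa4l2, was lost without TIN normoxia library A or double normoxia library A and was not tested without double hypoxia library A or B, and 3 were higher without WT library A or B.

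The double mutant had 8 lower and 2 higher than GLAD, where 17.2% of all genes were lower and 18.6% higher, at a median of −0.12. Ndufb6 (−0.92 ± 0.11 (adjusted p = 4.0e-06)) and Ndufa4 (−0.70 ± 0.13 (adjusted p = 3.1e-04)) were the furthest below GLAD, and Ndufs3 (0.28 ± 0.09 (adjusted p = 0.021)) and Ndufb10 (0.27 ± 0.10 (adjusted p = 0.049)) were higher. The 8 were 5 without GLAD normoxia library A and 4 without double normoxia library A. The 2 were 0 without GLAD normoxia library A, GLAD normoxia library B or double normoxia library B, and 1 without any one of the other 9 libraries of the mutants. These 3 comparisons share libraries in pairs.

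Most subunits encoded in mitochondrial DNA also fell in GLAD and double-mutant hypoxia. Summed over the 7 mt-Nd genes, the level was 1496 and 997 CPM in GLAD hypoxia against 2774 and 2857 CPM in GLAD normoxia. It was 3482 and 2976 CPM in TIN hypoxia against 3762 and 2225 CPM in TIN normoxia, where the libraries overlapped. In the double mutant it was 472 and 569 CPM in hypoxia against 1668 and 1502 CPM in normoxia, and WT stood at 3602 and 3666 CPM. Of the 7 genes 5 fell in GLAD, 6 fell in the double mutant and 3 rose in TIN, and the medians were −1.15, −1.63 and 0.15. Over all genes, 25.2% were lower in GLAD, 29.4% were lower in the double mutant and 26.4% were higher in TIN. Among them mt-Nd4, a proton-pumping subunit, had −1.39 ± 0.20 (adjusted p = 1.9e-05) in GLAD, −2.04 ± 0.20 (adjusted p = 1.1e-07) in the double mutant and 0.07 ± 0.20 (adjusted p = 0.78) in TIN. The 3 called higher in TIN were mt-Nd3, mt-Nd4l and mt-Nd6. The genes mt-Nd3 and mt-Nd4l stayed at or below 7.75 CPM. The TIN libraries of mt-Nd6 overlapped, at 366 and 304 CPM in hypoxia against 307 and 173 CPM in normoxia.

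Of the 17 assembly factors tested, which build complex I and are not part of it, 9 fell and none rose in GLAD, 4 fell and 1 rose in TIN, and 8 fell and 1 rose in the double mutant. Over all genes, 25.2% were lower and 22.7% higher in GLAD, 27.6% and 26.4% in TIN, and 29.4% and 26.5% in the double mutant. Neither TIN count of assembly factors exceeds that background. Timmdc1, Acad9 and Tmem186 fell in all 3. Ndufaf1, an early assembly factor, had 0.62 ± 0.11 (adjusted p = 8.1e-05) in TIN. Of the 4 subunits of complex II, the succinate dehydrogenase, 3 fell in GLAD, 1 in TIN and 3 in the double mutant, and Sdhc fell in all 3, by 0.66 ± 0.09 in GLAD, 0.45 ± 0.09 in TIN and 1.01 ± 0.09 in the double mutant.

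The oxygen response itself was present in all 3 mutants. Of 6 HIF-linked genes tested, 6 rose in GLAD, 5 rose and 1 fell in TIN, and 6 rose in the double mutant. Pdk1, the kinase that holds pyruvate back from mitochondria, rose by 3.31 ± 0.08 in GLAD, 2.98 ± 0.08 in TIN and 1.94 ± 0.08 in the double mutant. Bnip3, a receptor for removal of mitochondria, rose by 3.04 ± 0.08, 3.61 ± 0.08 and 2.22 ± 0.08 in the same order. Hif1a was the one that fell in TIN, by 0.54 ± 0.13 (adjusted p = 0.0026). The double mutant in normoxia already had 5 of the 6 higher than WT, at a median of 1.12, where 29.5% of all genes were higher. Among 12 regulators of mitochondrial biogenesis, 4 rose and 4 fell in GLAD, 1 rose and 5 fell in TIN, and 7 rose and 1 fell in the double mutant. Of all genes, 22.7% rose and 25.2% fell in GLAD, 26.4% and 27.6% in TIN, and 26.5% and 29.4% in the double mutant. With 12 genes, these counts are given as a description. Ppargc1a and Ppargc1b, coactivators that drive respiratory genes, were called lower in GLAD and TIN, at −0.78 ± 0.25 and −0.89 ± 0.25 for Ppargc1a. They were not called in the double mutant, at −0.08 ± 0.25 for Ppargc1a. Neither exceeded 2.45 CPM in any library, so these differences depend on the 0.5 CPM added. In TIN, Ppargc1a stood at 0.0996 and 0.298 CPM in hypoxia, near the floor, against 0.828 and 0.735 CPM in normoxia. Tfb1m, a mitochondrial ribosomal RNA methyltransferase, fell in all 3, and Myc rose in all 3.

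Some markers of other cell types moved with hypoxia in all 3 mutants. The 5 epithelial markers summed to 33.0 and 37.1 CPM in GLAD hypoxia against 2.87 and 2.60 CPM in GLAD normoxia, 60.1 and 62.0 against 8.81 and 7.63 CPM in TIN, and 17.3 and 17.3 against 1.92 and 1.56 CPM in the double mutant. Most of each hypoxia sum was Krt19 alone, at 31.3 and 35.7 CPM in GLAD, 57.8 and 60.5 in TIN and 14.1 and 14.9 in the double mutant. Krt18 and Krt19 rose in GLAD and in the double mutant and Krt19 in TIN, while Epcam, Cdh1 and Krt8 did not reach 1 CPM in 2 libraries. Of the 7 fibroblast markers tested, 1 fell in GLAD, 2 fell in TIN and 5 fell in the double mutant, and 1 rose in each. The shares of all genes that fell were 25.2%, 27.6% and 29.4% in the same order, and 22.7%, 26.4% and 26.5% rose. The 4 myeloid markers summed to 56.7 to 68.5 CPM in the 6 hypoxia libraries of the mutants against 23.5 to 35.7 CPM in their 6 normoxia libraries, with Ptprc and Adgre1 under the limit. Most of this rise was Cd68, at 39.3 to 44.9 CPM in those hypoxia libraries against 6.86 to 17.3 CPM in normoxia. Cd68 was called higher in all 3 mutants, and Csf1r in TIN alone. Endothelial, muscle and adipocyte markers summed to at most 15.0, 6.36 and 7.05 CPM, and neural markers to 142 to 409 CPM. The part of these markers in the results on complex I was not tested.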

How the data were processed

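RNA-seq was done on 14 libraries of mouse fibroblasts in 7 groups of 2. The authors deposited 1 table of CPM per Ensembl gene, which is the read count scaled to a common library total, and per the submitters' processing notes they used STAR, HTSeq and GRCm38.p4 (mm10), whose versions and strand setting are not given in the sources used here. Symbols came from the reference tables, for 52403 of 52636 genes. CPM were scaled with unweighted TMM (trimming 30% of log ratios and 5% of mean levels from either end), the 16157 genes reaching 1 CPM in 2 or more libraries were tested, and log2(CPM + 0.5) was fitted with limma 3.58.1 in R 4.3.3, with 7 group means, a mean-variance trend, 7 residual and 10.8 prior degrees of freedom, and Benjamini-Hochberg adjustment over all genes tested. A fold change on this scale understates the change of low genes. The script was tested on simulated data. A test on counts had been planned and was replaced, because the deposited values are CPM and not counts. Whole reads were estimated from the spacing of the low values, of which 99.90% to 100.00% were fitted in a library. Depths are estimates, and floors cover counting error only.

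The 12 comparisons were hypoxia against normoxia in each mutant, the differences of those effects, and mutants against WT and against each other in normoxia. The members, the lists and the tests were chosen with earlier results of these data known. Genes named with full values were taken by a rule, namely the core subunits, the complex IV pair and, in each hypoxia effect, difference of effects and comparison with WT, the 3 called members with the largest absolute log2 difference. Other genes with values were chosen after their values were seen. Alternatives were CPM as deposited, no filter, other added values (0.1 and 1), removal of each library's trend on transcript length and GC content (splines with 4 degrees of freedom each), a block by library letter, and leaving out each library. The values of 1 member, included in the counts, are not reported here.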

Additional observations from a re-analysis of the deposited data

Results flagged for a closer look

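The hypoxia effect differed between TIN and the other mutants for many complex I members by a test of the difference itself (limma, adjusted p under 0.05). TIN minus GLAD was called above 0 for 26 of 38 members and below 0 for 0, where 16.6% of all genes were called above and 17.3% below. By sign alone, 37 were above 0 and 1 below. The differences were 1.23 for Ndufa11, 1.00 for Ndufa3 and 0.87 for Ndufa1 on the log2 scale. Double minus TIN was called below 0 for 27 members and above 0 for 0, where 21.4% of all genes were called in either direction. By sign alone, 35 were below 0 and 3 above. The differences were −1.07 for Ndufa3, −0.95 for Ndufa1 and −0.92 for Ndufa11. Double minus GLAD was called above 0 for 2 members and below 0 for 0, where 7.00% of all genes were called above and 7.61% below, so the count of 2 does not exceed the background. The 2 were Ndufb6, at 0.73, and Ndufa4l2, which passed the filter only through double hypoxia and whose call is not read. By sign alone, 22 were above 0 and 16 below. In limma, an unadjusted p under 0.05 in either direction was found for 33 members in TIN minus GLAD, 30 in double minus TIN and 3 in double minus GLAD. The share of all genes at that unadjusted limit was not worked out, so these counts are not set against a background. The transcript length trend of the TIN hypoxia libraries moves with both comparisons that hold TIN. With the trend removed, TIN minus GLAD was called above 0 for 20 members, against 16.1% of all genes, and double minus TIN below 0 for 19, against 22.0%.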

How the results depend on the processing

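Of 507 counts under alternatives, 431 stayed within 1.5 times the main count, and of 2781 values for named genes, 2577 kept direction and side of the threshold. Shares of all genes are given for the main fit and for some counts with the length and GC trend removed. They are not given for the other alternatives, so those counts are not set against a background. The balance of TIN hypoxia calls turned from 7 higher and 4 lower to 6 higher and 9 lower with the length and GC trend removed, and to 6 higher and 10 lower with the block as well. The median of double minus GLAD was 0.03, but −0.04 without double normoxia library A and −0.05 without double hypoxia library B. With no filter on low values, counts were 4 higher and 1 lower for TIN hypoxia, 13 for TIN minus GLAD, 1 for double minus GLAD, 16 for double minus TIN, 3 higher for TIN against WT, 1 lower for TIN against GLAD, 1 higher and 5 lower for double against GLAD, and 10 lower for double against TIN; the cause was not tested. With that trend removed, 1 was higher in GLAD against WT, and 2 were higher in double against TIN. With 0.1 CPM added, double minus GLAD had 1 and double against GLAD 1 higher, and on CPM as deposited the second also had 1. The length rho in TIN was −0.18 with mean transcript length.

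Over 21 pairs of groups, deviations of same-lettered libraries correlated weakly, at −0.10 to 0.16, above 0.1 in 3. Weak correlations over all genes cannot tell whether library letters pair the samples. With letter as a block, TIN hypoxia had 9 higher and 5 lower, TIN minus GLAD 30, double minus TIN 29 and double against TIN 2 higher. With block and trend removal together, GLAD against WT had 1 higher, double against GLAD 13 lower and double against TIN 2 higher. The share of all genes called with the block is not given, so a change in these counts may be shared by all genes.

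Leaving out each library gave these ranges of counts, higher then lower. Hypoxia gave 1 to 1 and 23 to 34 in GLAD, 3 to 11 and 1 to 5 in TIN, and 1 to 2 and 18 to 32 in the double mutant. TIN minus GLAD gave 17 to 33 and 0 to 0, double minus GLAD 1 to 3 and 0 to 0, and double minus TIN 0 to 0 and 14 to 32. Against WT, GLAD gave 0 to 1 and 16 to 33, TIN 1 to 7 and 15 to 28, and the double mutant 0 to 0 and 25 to 35. TIN against GLAD gave 8 to 15 and 1 to 4, double against GLAD 0 to 3 and 4 to 12, and double against TIN 0 to 3 and 9 to 24. A lone library left in a group was assumed to vary like the other groups. No share of all genes is given beside these ranges. With 2 libraries a group and an estimated depth, low members such as Ndufa4l2 were limited by counting error.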
